A study of Homo sapiens with 2 samples.

Results

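The regions described here are the intergenic anti-Flag peaks of TFK-1 cells that expressed Flag-tagged HOXA5, lying more than 3000 bp and at most 500000 bp from the nearest gene end. A peak was taken if it shared no base with a peak of the control library, overlapped no RefSeq gene body of GRCh38, and had its edge in that range of distances. Of the 8043 peaks listed for the HOXA5 library, 1522 met the rule, or 18.9% (exact binomial 95% interval 18.1 to 19.8%). TFK-1, a human line, was derived from a cholangiocarcinoma of the extrahepatic bile duct. CUT & Tag against the Flag tag compared TFK-1 cells infected with a lentivirus for Flag-HOXA5 (LV-HOXA5) and cells that carried the control vector (LV-HOXA5-NC), both puromycin-selected lines. Each condition had 1 library, so no value below has a replicate check, and peaks of the same library are not replicates of a condition.

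HOXA5 is a homeodomain transcription factor that helps to set position along the body axis, and homeodomains of its class recognise short AT-rich sequences with the core TAAT. Regions far from gene ends that bind such factors can act as enhancers, which raise the transcription of a gene at a distance, or as silencers. Which gene a distal region acts on cannot be read from position alone, since it can pass over its nearest gene. CUT & Tag uses an antibody to bring a transposase to a bound protein, and it can also cut open chromatin that the protein does not bind. The peaks are therefore described as candidate distal elements, and neither their activity nor their target genes were measured.

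The HOXA5 library held 15778555 fragments and the control library 1948734, or 12.4% as many. The peaks had been called in each library by itself, without the control as background. Of all LV-HOXA5 peaks, 94.5% shared no base with a control peak, and the rule used this property. At the control's depth, a summit pileup (how many fragments cover the top of a peak) of at least 32.4 in LV-HOXA5 would be needed to scale to the lowest pileup of the control list, 4 fragments. This level was reached by 197 of the 1522 intergenic peaks, or 12.9% (11.3 to 14.7%), against 13.2% of all LV-HOXA5 peaks. Without the peaks that had a control peak within 10 kb, the number was 114. For peaks below this level, a peak of the same density could be missing from the control list through depth alone. Reaching the level does not ensure a call in the control either, since 4 fragments was only the lowest pileup listed there. Depth and the lack of HOXA5 thus cannot be told apart for any of these peaks.

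The peaks' own sequences could not be read, as no genome sequence was used here, but promoter windows of flanking genes were. Among the genes of the lists given further down, DKK1, ELF3 and KLF5 each flanked 3 intergenic peaks within 500 kb and also had a separate LV-HOXA5 peak over a promoter window, which for KLF5 belongs to a start inside the gene. Their windows are shown because these genes carried signal both at the promoter and at a distance. Each line gives, 5′ to 3′ on the gene's strand, the 250 bases upstream of an annotated start from RefSeq (GRCh38.p14), and capitals mark the core TAAT or its reverse complement ATTA. The DKK1 window is chr10:52314031-52314280, the ELF3 window chr1:202010337-202010586 and the KLF5 window chr13:73058755-73059004, all on the plus strand.
DKK1: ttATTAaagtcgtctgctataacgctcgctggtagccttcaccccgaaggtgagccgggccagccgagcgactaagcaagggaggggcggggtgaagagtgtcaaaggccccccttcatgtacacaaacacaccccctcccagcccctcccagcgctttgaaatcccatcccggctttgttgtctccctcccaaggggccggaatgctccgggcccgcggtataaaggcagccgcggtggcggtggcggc
ELF3: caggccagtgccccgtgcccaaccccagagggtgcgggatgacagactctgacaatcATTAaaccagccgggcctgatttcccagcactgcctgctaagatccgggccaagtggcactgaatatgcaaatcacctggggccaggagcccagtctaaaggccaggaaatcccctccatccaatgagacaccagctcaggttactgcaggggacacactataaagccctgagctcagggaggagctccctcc
KLF5: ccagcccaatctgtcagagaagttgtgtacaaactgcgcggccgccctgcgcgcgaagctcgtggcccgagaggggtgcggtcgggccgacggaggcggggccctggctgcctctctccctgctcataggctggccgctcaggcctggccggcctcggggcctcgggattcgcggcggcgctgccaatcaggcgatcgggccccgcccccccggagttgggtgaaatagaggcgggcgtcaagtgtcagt

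The DKK1 and ELF3 windows each held 1 match to the core, both as ATTA, and the KLF5 window held 0. Either form was present in 47.4% of 35116 windows of this length over all genes in the table, and TAATTA, which contains both forms, in 4.35%. A match is a description of the letters and not a bound site. The promoter peaks had pileups of 20 fragments at DKK1 (exact Poisson 95% interval 12.2 to 30.9), 19 at ELF3 (11.4 to 29.7) and 22 at KLF5 (13.8 to 33.3). Their fold enrichments over the local background were 3.34, 3.59 and 6.46, so the window without the core lay under the strongest of these peaks. Each window covers only part of its peak, 243 bases at KLF5, and the rest of the peak was not searched for the core. DKK1 is a secreted inhibitor of Wnt signalling, ELF3 an epithelial ETS factor that is mutated in bile duct cancers, and KLF5 a zinc finger factor of gut epithelia.

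Most of the intergenic peaks were weak. Their pileup at the summit ran from 8 to 388 fragments with a median of 16 (quartiles 12 and 24), and their median length was 367 bp. The enrichment of the summit over its local background, given as a fold, ran from 1.67 to 21.6 with a median of 4.61 (95% interval of the median 4.53 to 4.68). On the −log10 q scale, 289 peaks reached 10 or more, or 19.0% (17.0 to 21.1%), against 21.9% of all LV-HOXA5 peaks. A fold enrichment of 8 or more was listed for 61, or 4.01% (3.08 to 5.12%), against 6.64% of all. The strongest intergenic peak by fold lay on chromosome Y, with 122 fragments and a fold enrichment of 21.6.

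Compared with the other LV-HOXA5 peaks that shared no base with a control peak, the intergenic peaks had a median fold enrichment close to those near or inside genes. The median fold enrichment was 4.76 for 3280 peaks within 3 kb of a gene end and 4.61 for 1995 peaks inside genes. It was 5.94 for 802 peaks more than 500 kb from a gene. The share that reached 10 on the −log10 q scale was 17.7% (16.5 to 19.1%) near gene ends, 13.8% (12.3 to 15.4%) inside genes and 32.3% (29.1 to 35.7%) beyond 500 kb. For the intergenic peaks it was 19.0% (17.0 to 21.1%). A fold enrichment of 8 or more was listed for 2.87% near gene ends, 2.11% inside genes and 19.0% beyond 500 kb, against 4.01% of the intergenic peaks. Intergenic peaks in the same range of distances that did share a base with a control peak numbered 163, with a median pileup of 108 and a median local background of 16.4 fragments against 2.49 for the peaks without. The classes share a library, and no test between them was made.

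**Figure D1:**
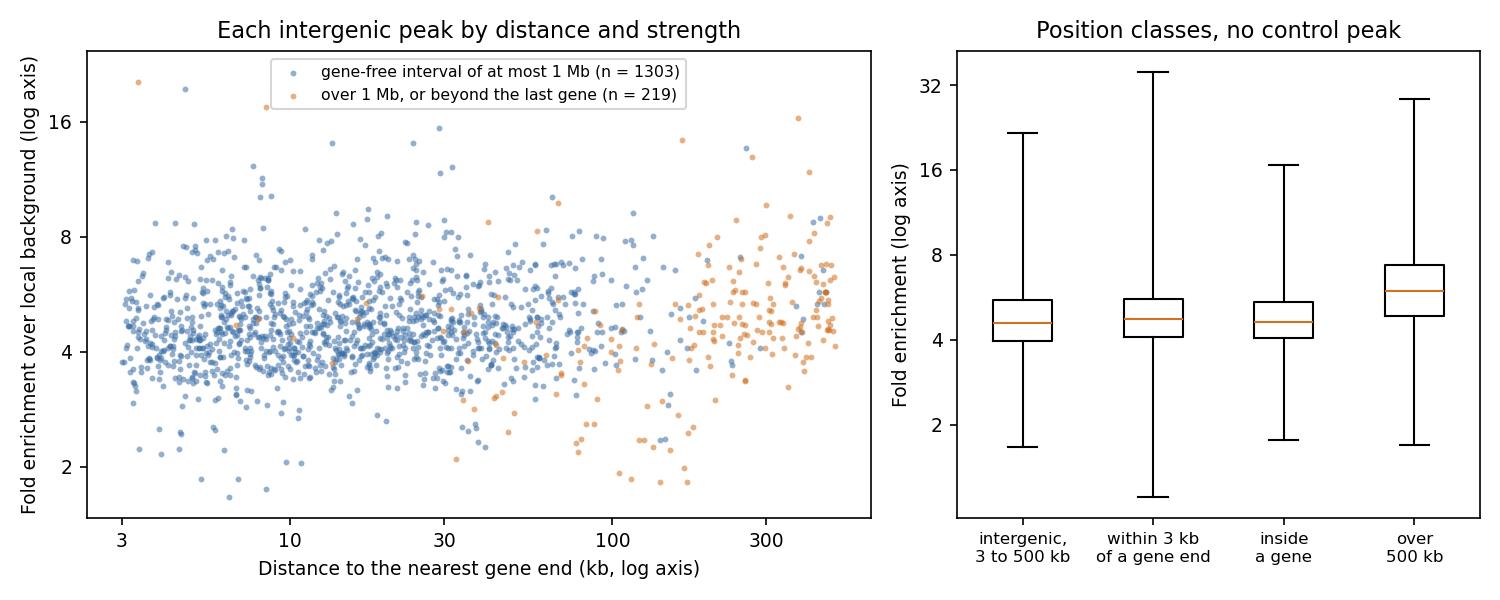
On the left, each of the 1522 intergenic peaks is a point placed by its distance to the nearest gene end (kb, log axis) and its fold enrichment (log axis), in blue for gene-free intervals of at most 1 Mb (1303 peaks) and in orange for longer ones or beyond the last gene (219 peaks). On the right, boxes give the quartiles and median of the fold enrichment (log axis) in the position classes and whiskers the lowest and highest peak. The medians are 4.61, 4.76, 4.61 and 5.94 from left to right.

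The local background, recovered from each peak's pileup and fold enrichment, tells how many fragments were expected at the summit. It was taken from the same library over a range of 10000 bp that holds the peak itself, whose own fragments can add to this background. Its median over the intergenic peaks was 2.49 fragments against a genome-wide level of 1.44. It exceeded 3 times the genome-wide level, or 4.31 fragments, at 301 peaks, or 19.8% (17.8 to 21.9%), against 17.6% (16.8 to 18.5%) of all LV-HOXA5 peaks. The 1221 peaks below that limit had a median pileup of 14 and a median fold enrichment of 4.71, and 12.4% of them reached 10 on the −log10 q scale. Of these, 29 reached the pileup that scales to the lowest control pileup, or 2.38% (1.60 to 3.39%). Of the 197 peaks that reached it, 168 had a background above the limit. At a background below the limit, this pileup needs a high fold enrichment, so pileup and recovered background are linked by construction.

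The edges of the rule cut through peaks of ordinary strength. Just inside 3000 bp were a peak 3008 bp from the pseudogene KSR1P1 with a fold enrichment of 3.76, and a peak 3058 bp from RPS2P17 with 5.33. Just outside were a peak 2977 bp from CHST12 with 3.27 and a peak 2971 bp from ANKRD20A16P with 5.38. Just inside 500000 bp were peaks at 491012 bp from LOC124909015 and at 487862 bp from FRG1CP, with fold enrichments of 4.13 and 6.27. The first of them lies on the short-arm pseudoautosomal end of chromosome Y, where the gene table places shared genes on X. Its distance and its place outside genes therefore leave those genes out. Just outside were peaks at 500492 bp from LOC102724904 and at 501227 bp from LOC124904678, with 3.72 and 4.51.

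The median intergenic peak lay 18.4 kb from the nearest gene end (95% interval of the median 17195 to 19975 bp), with quartiles of 7.92 and 49.2 kb. By band of distance, 493 peaks lay between 3 and 10 kb, 469 between 10 and 30 kb, 337 between 30 and 100 kb, 139 between 100 and 300 kb, and 84 between 300 and 500 kb. More of the genome lies close to genes than far from them, so the counts were divided by the length of DNA outside genes in each band, leaving out 3 peaks beyond the first or last gene of a chromosome. The density was 1.96 peaks per Mb at 3 to 10 kb (exact Poisson 95% interval 1.79 to 2.14), 1.39 at 10 to 30 kb (1.27 to 1.52) and 1.01 at 30 to 100 kb (0.906 to 1.13). At 100 to 300 kb it was 1.14 (0.955 to 1.34), and at 300 to 500 kb it was 4.34 (3.47 to 5.38). The ratio of the nearest band to the farthest was 0.450 (0.357 to 0.575). Where only protein-coding genes were counted as genes, the median distance was 47366 bp and the ratio 2.29.

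The high density of the farthest band came mostly from very long gene-free intervals, such as those around centromeres. In gene-free intervals of at most 1 Mb, a limit chosen after the values were seen, 11 peaks remained at 300 to 500 kb, where the density was 1.68 per Mb (0.840 to 3.01). There the density fell from 1.96 at 3 to 10 kb to 1.37 at 10 to 30 kb, 0.897 at 30 to 100 kb and 0.420 (0.307 to 0.560) at 100 to 300 kb. The ratio of the nearest band to the farthest was then 1.16 (0.644 to 2.34), an interval that includes 1. The median fold enrichment in these intervals was 4.51, 4.63, 4.65, 4.87 and 5.74 from the nearest band to the farthest, the last over 11 peaks.

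**Figure D2:**
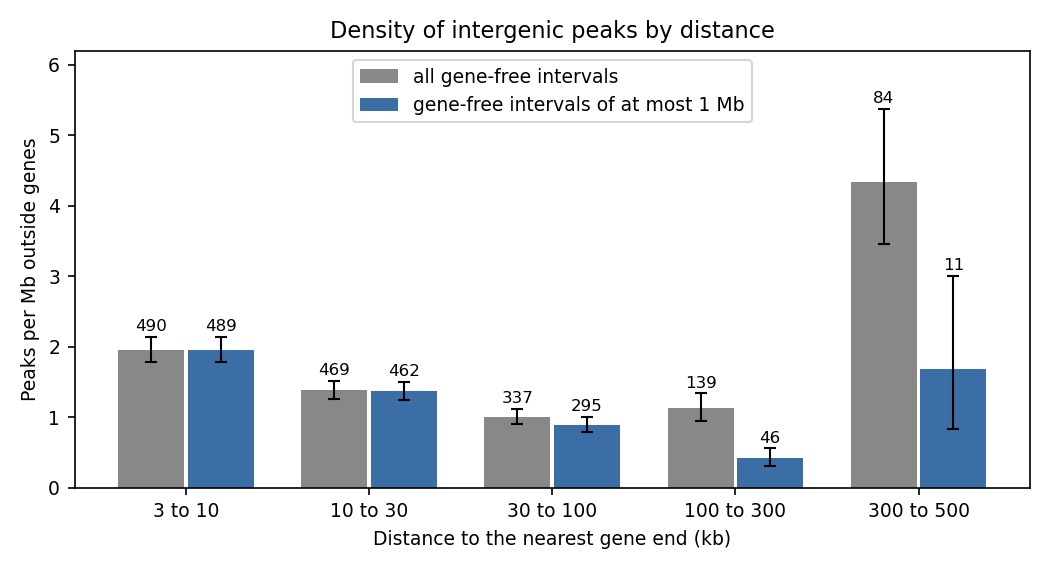
Bars give intergenic peaks per Mb of DNA outside genes in 5 bands of distance to the nearest gene end (kb), in grey for all gene-free intervals and in blue for those of at most 1 Mb. Error bars are exact Poisson 95% intervals, which cover counting error only, and the number over each bar is its count of peaks. Up to 100 kb the grey and blue bars lie close together, and beyond it the grey bars stand higher, at 1.14 against 0.420 and at 4.34 against 1.68 per Mb.

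The nearest gene was seldom protein-coding. It was a long non-coding RNA for 560 peaks, or 36.8% (34.4 to 39.3%), a pseudogene for 584, or 38.4% (35.9 to 40.9%), and a protein-coding gene for 332, or 21.8% (19.8 to 24.0%). In the gene table as a whole, 33.6% of 59716 genes are protein-coding, 30.7% are long non-coding RNAs, 26.1% are pseudogenes and a further 2.12% are transcribed pseudogenes. The table counts genes wherever they lie, also inside other genes. Its shares are therefore not those to be expected at intergenic positions, which were not computed. A microRNA gene was nearest for 18 peaks, or 1.18% against 3.20% of the table, among them MIR4430 at 6135 bp with a fold enrichment of 6.56 and MIR30A at 9281 bp with 4.44. For 592 peaks the strand of the nearest gene was known, and the nearest end was the start for 271 of them, or 45.8% (41.7 to 49.9%). Where that gene was protein-coding, the start was nearer for 123 of 256, or 48.0% (41.8 to 54.4%).

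A protein-coding gene lay within 500 kb on both sides of 878 peaks, on 1 side of 335, and on neither side of 309. The nearest protein-coding gene was at a median distance of 83.5 kb (quartiles 23.9 and 341 kb). In all, 1458 of 20050 protein-coding genes, or 7.27%, were the next such gene to an intergenic peak on either side within 500 kb, and 2262 were where only protein-coding genes counted as genes. Of the 1458, 1083 flanked 1 peak, 243 flanked 2, and 132 flanked 3 or more. A separate LV-HOXA5 peak within 3 kb of a gene end was present at 257 of the 1458 flanking genes, or 17.6% (15.7 to 19.7%). The share was 15.0% over all protein-coding genes and 14.8% (14.3 to 15.3%) over the genes that flanked none, and no test of this difference was made.

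The 12 intergenic peaks that ranked highest by fold enrichment, chromosome Y left out, lay mostly next to pseudogenes, at chromosome ends or in very long gene-free intervals. Mapping quality at these peaks was not examined, so their rank rests on the listed fold enrichments alone. The highest, chr7:9993-10241, lay 3364 bp from LOC102723872 and before the first gene of the chromosome, with 63 fragments (48.4 to 80.6) and a fold enrichment of 20.3. The peak chr10:133787148-133787422, with 87 fragments (69.7 to 107) and a fold of 17.5, lay beyond the last gene of chromosome 10. The peaks chr21:10325598-10325932 and chr21:10270207-10270532, next to the pseudogene EIF3FP1, had 137 and 128 fragments and folds of 19.5 and 18.8. On chromosome 3, chr3:91572636-91573078 and chr3:91891212-91891529 had folds of 19.1 and 16.3, in a gene-free interval of 2329990 bp between LOC101930420 and RNU6-488P. In still longer gene-free intervals, chr7:58033142-58033630 reached 14.3 and chr17:22977518-22977765 reached 12.9. The peak chr4:189233826-189234111, with 166 fragments (142 to 193) and a fold of 15.4, lay 28945 bp from LOC124900838.

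Only 3 of these 12 peaks had protein-coding genes within 50 kb on both sides. The peak chr3:195483544-195483858, with 95 fragments (76.9 to 116) and a fold enrichment of 14.1, lay between ACAP2, an ARF GTPase-activating protein, and PPP1R2, an inhibitor of protein phosphatase 1. It was 40524 bp from the former and 30570 bp from the latter. The peak chr1:236097111-236097391, with 96 fragments (77.8 to 117) and a fold of 14.0, lay 32021 bp from NID1, which encodes a basement membrane protein, and 45148 bp from GPR137B, though its nearest gene was the pseudogene ACO2P2. The peak chr22:50643674-50644227, with 41 fragments (29.4 to 55.6) and a fold of 12.3, lay 15522 bp from ARSA, a lysosomal sulfatase, and 28596 bp from SHANK3, a synaptic scaffold protein. All 12 had pileups that scale to at least 4 control fragments, which does not ensure a call at that depth, and none had a control peak within 10 kb.

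Peaks were put in a group where neighbours lay at most 10 kb apart with no gene between them. In this way 376 peaks, or 24.7% (22.6 to 27.0%), fell into 149 groups, of which 109 had 2 peaks, 24 had 3 and 16 had 4 or more, while 1146 stood alone. The grouped share was 14.7% among peaks with a local background of at most 3 times the genome-wide level. It was 15.0% with gaps of at most 5000 bp and 39.4% with gaps of at most 50000 bp. Grouped peaks had more fragments than single ones, with a median pileup of 23 against 15, but a lower median fold enrichment, 4.28 against 4.72. Their median local background was 4.09 fragments against 2.26. A background over 3 times the genome-wide level was found at 47.6% of grouped and 10.6% of single peaks. Grouping and local background thus moved together. The background was taken from the same library over a range of 10000 bp, so grouped neighbours can add to each other's background. The difference is therefore in part built in, and how large that part is was not tested.

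**Figure D3:**
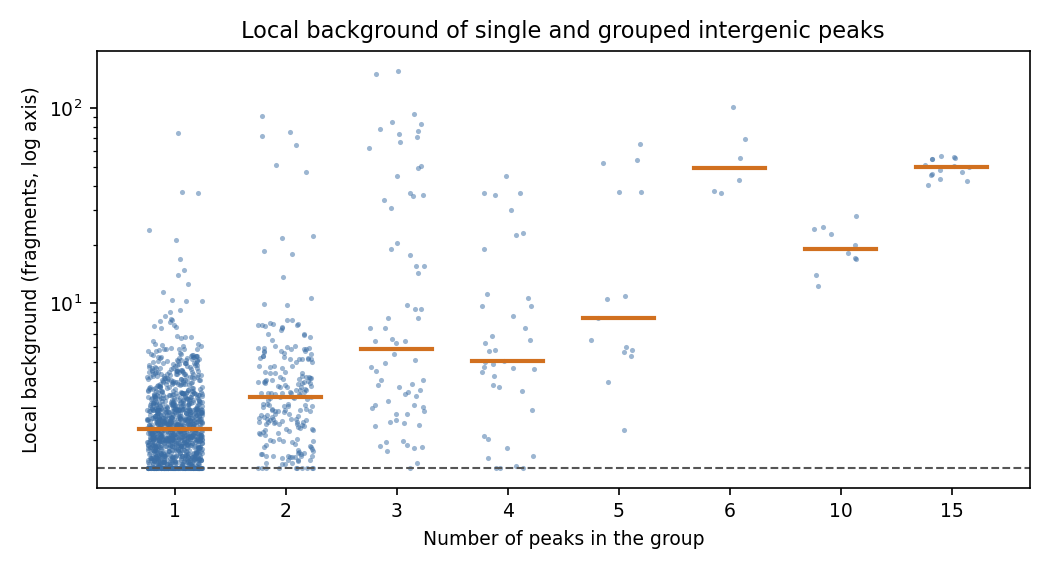
Each point is an intergenic peak, placed by the number of peaks in its group (1 means that it stood alone) and by its local background in fragments (log axis), with orange bars at the medians and a dashed line at the genome-wide level of 1.44 fragments. The groups of 6, 10 and 15 peaks lie well above single peaks, whose median is 2.26. Peaks of a group lie within 10 kb of a neighbour and can add to each other's local background.

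The largest groups lay beside centromeres or in the heterochromatin of chromosome Y, parts of the genome known to be rich in repeats. The group of 15 peaks spanned chrY:56675954-56750538, in the distal long arm of chromosome Y, with pileups of 84 to 258 fragments and fold enrichments of only 1.82 to 4.63, since its median local background was 50.1 fragments. No gene lay within 100 kb, and 27 control peaks lay within that distance of the group or between its peaks. The group of 10 at chr4:49306069-49329286 had pileups of 50 to 153 and folds of 2.32 to 8.58, with the nearest protein-coding gene, CWH43, at 243990 bp and 4 control peaks within 100 kb. Groups of 6 and 5 stood close together at chr1:143217257-143231617 and chr1:143249763-143266865, with median backgrounds of 49.1 and 52.5 fragments and 12 control peaks within 100 kb of each. The groups of 5 at chr10:42067205-42090956 and chr15:19776181-19784662 had lower backgrounds, 8.38 and 5.61 fragments, and no control peak within 100 kb. Their pileups ran from 28 to 47 and from 12 to 28.

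The protein-coding genes that were nearest to most intergenic peaks were mainly those at the borders of these gene-poor regions. CWH43, which takes part in remodelling the lipid of GPI anchors, was nearest to 26 peaks on chromosome 4, of which 21 lay within 500 kb, at a median background of 18.0 fragments. LOC124904970 and ZNF337 on chromosome 20 were nearest to 24 and 22 peaks, but only 2 of each lay within 500 kb. OR11H1, an olfactory receptor gene, was nearest to 22 peaks, the closest at 2277562 bp. CDY1 and USP9Y on chromosome Y were nearest to 22 and 13 peaks, the closest at 1022605 and 953473 bp. EPHA3 on chromosome 3 was nearest to 19 at 1315855 bp or more. LOC112268044, LOC124905938 and LOC101927345 were nearest to 18, 14 and 13, of which 5, 1 and 10 lay within 500 kb. These 10 genes were nearest to 193 peaks, or 12.7% of all. Of the 927 genes nearest to a peak, 689 were nearest to a single one.

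By chromosome, the density of intergenic peaks between genes ran from 0.480 per Mb on chromosome 13 (0.297 to 0.734) and 0.552 on X (0.401 to 0.741) to 3.01 on chromosome 17 (2.31 to 3.85) and 3.56 on chromosome 20 (2.85 to 4.41). On chromosome 20, 29 of 85 peaks lay in gene-free intervals over 1 Mb, and on chromosome 17, 16 of 63. Chromosome Y had 40 peaks with a median pileup of 69 and a median local background of 7.73 fragments, the highest of any chromosome, and chromosome 21 followed with 38 and 6.90. The copy number of the chromosomes in this cell line was not measured here.

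Away from such regions, several stretches between neighbouring protein-coding genes held a run of peaks. There were 729 stretches of at most 1 Mb between protein-coding genes with at least 1 intergenic peak, of which 568 held a single peak, 54 held 3 or more, and 7 held 5 or 6. Of these, 6 are described, chosen after their values were seen, as runs of candidate elements beside a gene. None of the 6 contained a control peak, though 1 lay 70076 bp from a peak beside TGFB2, outside the stretch. All of their local backgrounds were below 10 fragments, but several exceeded the genome-wide level 3-fold.

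Between AREG and BTC, neighbouring genes for the EGF receptor ligands amphiregulin and betacellulin, 6 peaks lay in 53.9 kb of a 290 kb stretch of chromosome 4, all with the non-coding gene LOC107986229 as their nearest gene. They formed 2 groups of 3. The first, at chr4:74608435-74625220, had pileups of 11, 15 and 12 fragments and fold enrichments of 4.92, 5.67 and 4.49. The second, at chr4:74654192-74662373, had pileups of 26, 28 and 25 and folds of 6.87, 5.73 and 5.36. The second group thus had more fragments than the first in every peak, over a local background of 2.93 to 4.06 fragments against 1.44 to 1.90. The closest peak to BTC was at 82.4 kb and the closest to AREG at 153 kb, and neither gene had a peak within 3 kb of its ends.

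ALDH1A1 encodes a retinaldehyde dehydrogenase, which makes the retinoic acid that induces HOX genes, and ANXA1 encodes annexin A1. In the 199 kb between them on chromosome 9 lay 6 peaks, of which 4 formed a group at chr9:72978970-72997942, 25.9 kb from the start of ALDH1A1. Their pileups were 19, 27, 29 and 34 fragments and their folds 3.28, 3.31, 4.14 and 6.14, so that the peak farthest from ALDH1A1 was the strongest. The remaining peaks, of 15 and 18 fragments, stood alone at folds of 5.05 and 4.62. In the 320 kb between IFNE, an epithelial interferon gene, and MTAP, a methionine salvage gene that is often lost in tumours, 6 peaks of 18 to 29 fragments had folds of 3.48 to 5.70. The group of 4 among them at chr9:21677690-21688671 lay 6503 bp or more from the pseudogene KHSRPP1, and the other pair had MIR31HG, the host gene of a microRNA, as nearest gene.

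Between NFKBIZ, an inducible regulator of NF-kappa-B target genes, and ZPLD1 on chromosome 3, 6 peaks of 15 to 25 fragments had folds of 3.90 to 7.68. The strongest, chr3:102113415-102113860, was 252393 bp from NFKBIZ, and only the weakest in pileup, of 15 fragments, lay close to the gene, at 7693 bp. Next to TGFB2, which encodes a transforming growth factor, 6 peaks were spread over 504 kb of chromosome 1 towards LYPLAL1, with pileups of 9 to 25 and folds of 3.86 to 4.76. Their pileup was highest at the peak nearest to TGFB2, 35264 bp away, and lowest at the farthest. Between TCIM, a regulator of Wnt signalling, and ZMAT4, 5 peaks of 18 to 60 fragments had folds of 2.53 to 8.38, and 2 of them reached the pileup that scales to the lowest control pileup.

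**Figure D4:**
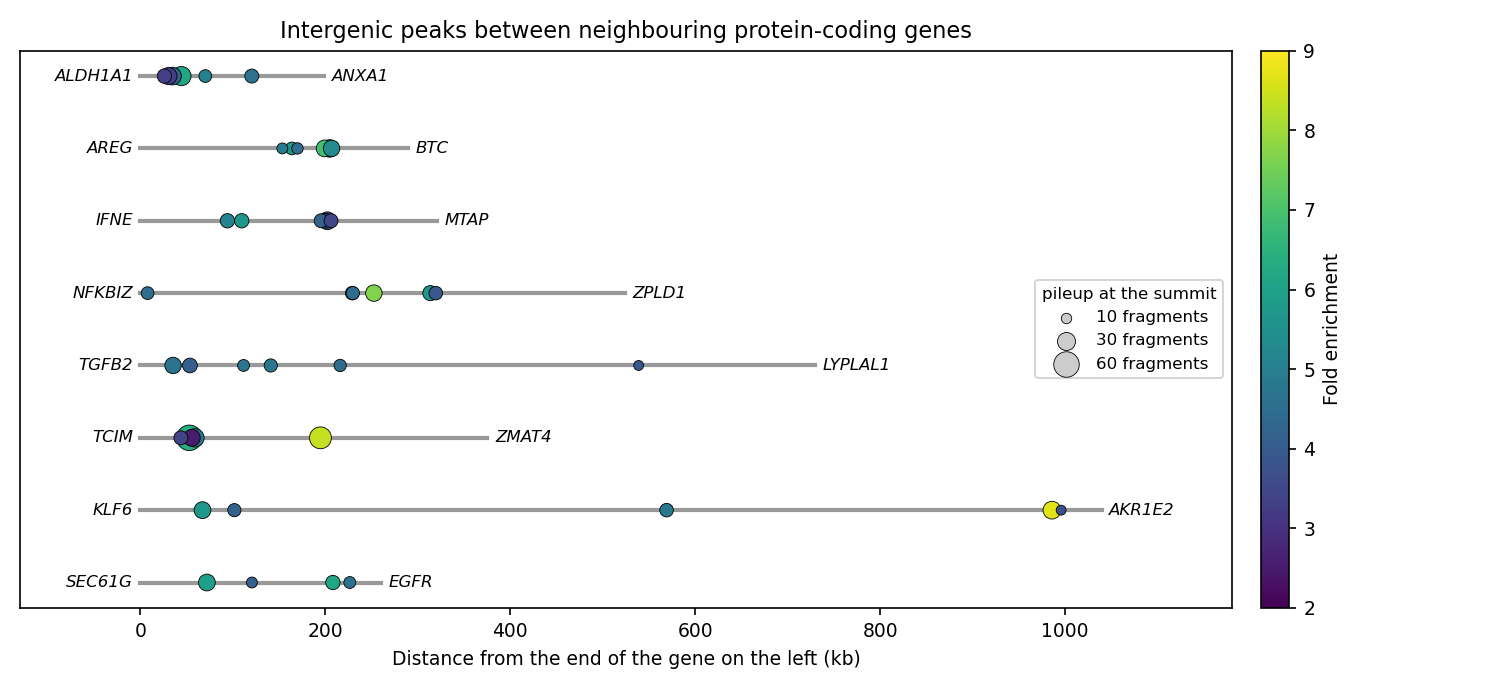
Each grey line is a stretch of DNA between the protein-coding genes named at its ends, drawn to scale in kb from the end of the gene on the left, and each circle is an intergenic peak, with its area for the pileup at the summit and its colour for the fold enrichment. The upper 6 lines are the stretches of at most 1 Mb with 5 or 6 peaks that the text describes, and KLF6 and EGFR are added as genes of the lists. Peaks stand in tight runs beside ALDH1A1 and TCIM and between AREG and BTC, and they are spread out beside TGFB2 and KLF6.

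To see beside which kinds of gene the intergenic peaks lay, 11 lists of genes were counted. Over all protein-coding genes, 7.27% flanked an intergenic peak within 500 kb, but this share rose with the space free of protein-coding genes beside a gene, counted up to 500 kb on each side. It was 0.387% for 7229 genes with less than 20 kb, 5.04% at 20 to 100 kb, 14.9% at 100 to 300 kb, 22.5% at 300 to 600 kb and 29.2% from 600 kb. Each list is therefore set beside the share of all genes with as much free space, averaged over the genes of the list. Intervals are exact binomial ones, and as neighbouring genes share peaks, they understate the error. No test of the lists was made.

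Growth factor ligands and receptors flanked intergenic peaks at 19 of 68 genes, or 27.9% (17.7 to 40.1%), against 15.6% for genes with as much space. The strongest peak of this list lay 176 kb from BMP2, a bone morphogenetic protein, at chr20:6590884-6591584, with 43 fragments and a fold enrichment of 8.35. A peak at chr10:52443476-52444226, 126 kb from DKK1, had 42 fragments and a fold of 7.92. AREG and BTC shared the peaks described above, with a fold of 6.87 at the highest. KITLG, the ligand of the receptor KIT, flanked 3 peaks, EGFR 4 and TGFB2 5. The peak of highest fold beside EGFR, the receptor for AREG and BTC, lay 51.3 kb away with 19 fragments and a fold of 6.17, and the nearest 33.1 kb away. Other members with a flanking peak were IGF2, HGF, NRG1, TGFBR2, VEGFC, FGF10, IL6, CXCL8, LIF, FGF2, CXCL1 and TGFA, at folds of 3.45 to 6.65 for the highest peak of each. Only DKK1 of the 19 also had a peak within 3 kb of its ends.

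Biliary and foregut regulators, the transcription factors and signals that shape the bile duct and its neighbours, flanked peaks at 11 of 40 genes, or 27.5% (14.6 to 43.9%), against 14.7% for genes with as much space. NR5A2, a nuclear receptor of liver and pancreas, flanked 3 peaks, of which the highest had 17 fragments and a fold of 5.92 at 268 kb. ELF3 flanked 3 peaks, the highest at chr1:202056834-202057493, 39.7 kb away, with 35 fragments (24.4 to 48.7) and a fold of 5.81. KLF6, a zinc finger factor induced on injury, had a peak of 26 fragments and fold 5.72 at 67.1 kb, and HNF4G and KLF5 had peaks of 12 fragments and fold 5.33 at 82.9 and 249 kb. The others were GATA6, JAG1, GRHL2, PROX1, HHEX and TBX3, with folds of 3.23 to 5.00 at the highest peak of each. ELF3, KLF5, GATA6, PROX1 and TBX3 also stand in another list. Local background was at most 3 times the genome-wide level at a flanking peak of all 11 genes.

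Developmental transcription factors flanked peaks at 23 of 102 genes, or 22.5% (14.9 to 31.9%), close to the 20.6% of genes with as much space. The strongest was chr10:8366171-8366841, 291 kb from GATA3, a zinc finger factor of several epithelia, with 32 fragments (21.9 to 45.2) and a fold of 8.64. It was the first of 6 peaks in the 2387 kb between GATA3 and CELF2, whose pileups were 32, 16, 20, 13, 9 and 14 fragments in order from GATA3. SALL1 had a peak of fold 6.72 at 386 kb, TP63, a p53 relative of basal epithelia, of fold 6.45 at 40.4 kb, and IRX1 of fold 6.40 at 272 kb. TBX20 had the closest, at 3.50 kb. HOX cofactors of the PBX, MEIS and PKNOX families, which bind DNA together with HOX proteins, flanked peaks at 0 of 9 genes, which with 9 genes allows a share of up to 33.6%, against 13.8% for genes with as much space.

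Genes for cell adhesion molecules of neurons were included as genes with wide empty flanks. None of their 41 genes flanked an intergenic peak, which allows a share of up to 8.60%, although genes with as much free space did so at 27.4% and the median gene of the list had 1000 kb free beside it. The number in the list at that share would be 11.2. That share matches only space free of protein-coding genes, while the intergenic peaks lie outside genes of every type. The list was also chosen with earlier results of these data known. What the flanks of these genes share beyond their width was not tested.

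Markers of bile duct epithelium flanked peaks at 5 of 40 genes, or 12.5% (4.19 to 26.8%), against 7.02% for genes with as much space, and all 5 had a peak within 100 kb. BICC1, an RNA-binding protein of bile ducts and kidney tubules, had a peak of 20 fragments and fold 6.07 at 25.2 kb. MMP7, a matrix protease of glandular epithelia, had chr11:102552142-102553011 with 23 fragments and fold 5.91 at 21.4 kb, CLDN4, a tight junction protein, a peak of 25 fragments and fold 5.86 at 8.07 kb, and CFTR, the chloride channel, one of 16 fragments and fold 4.95 at 6.91 kb. EPCAM, an adhesion molecule of epithelia, had a peak of fold 4.91 at 14.6 kb. For MMP7, CLDN4 and CFTR, this gene was also the nearest of any type.

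Genes that are often mutated in cholangiocarcinoma flanked peaks at 6 of 36, or 16.7% (6.37 to 32.8%), against 10.2% for genes with as much space. ARID1B, a subunit of the BAF chromatin remodelling complex, had a peak of 16 fragments and fold 6.97 at 72.1 kb. Further genes of the list with a flanking peak were ELF3, given above, TGFBR2 with a fold of 5.54 at 26.7 kb, IDH2 with 4.92 at 55.6 kb and CTNNB1 with 4.87 at 228 kb.

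Another 3 lists hold regulators of growth, the cell cycle and cell death. In the MYC, MXD and MAX network, 2 of 13 genes, MYC and MAX, flanked a peak, or 15.4% (1.92 to 45.4%), against 7.73% for genes with as much space. MYC, a growth-promoting transcription factor, flanked 3 peaks within 500 kb and had a further one within 3 kb of its ends, the highest of the 3 distal ones with 26 fragments and a fold of 5.47 at 384 kb, and MAX had a peak of fold 3.88 at 77.3 kb. MXD1, a MAX partner that opposes MYC, flanked none. Peaks within 3 kb of a gene end are outside the rule, and the paper describes a CUT & Tag peak in the MXD1 promoter region. Among E2F, cyclin and cyclin-dependent kinase genes, 4 of 44 did so, or 9.09% (2.53 to 21.7%), against 7.89%. CDKN2B, an inhibitor of cyclin D kinases, had 3, the highest being chr9:22147863-22148517 with 25 fragments and fold 7.06 at 139 kb, with CDKN2B-AS1 as nearest gene, and E2F6, CDC25A and CCNE1 had folds of 5.14, 3.81 and 3.23. Of the p53 pathway and apoptosis genes, 2 of 41, or 4.88% (0.596 to 16.5%), against 7.81%, flanked a peak. These were PMAIP1, a BH3-only inducer of apoptosis, with a fold of 6.56 at 149 kb, and SESN2, a stress-induced sestrin, with 4.94 at 12.1 kb.

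Among AP-1 and stress response factors, 5 of 35 genes, or 14.3% (4.81 to 30.3%), against 10.4% for genes with as much space, flanked a peak. The highest lay 300.2 kb from CEBPB, a bZIP factor of inflammation and differentiation, with 23 fragments and a fold of 6.43. FOS, the AP-1 subunit, had a peak of 15 fragments and fold 4.88 at 19.6 kb, ATF3 one of 25 fragments and fold 4.38 at 79.0 kb, IER2 one of fold 4.02 at 7.93 kb, and KLF10 one of fold 3.70 at 75.1 kb.

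**Figure D5:**
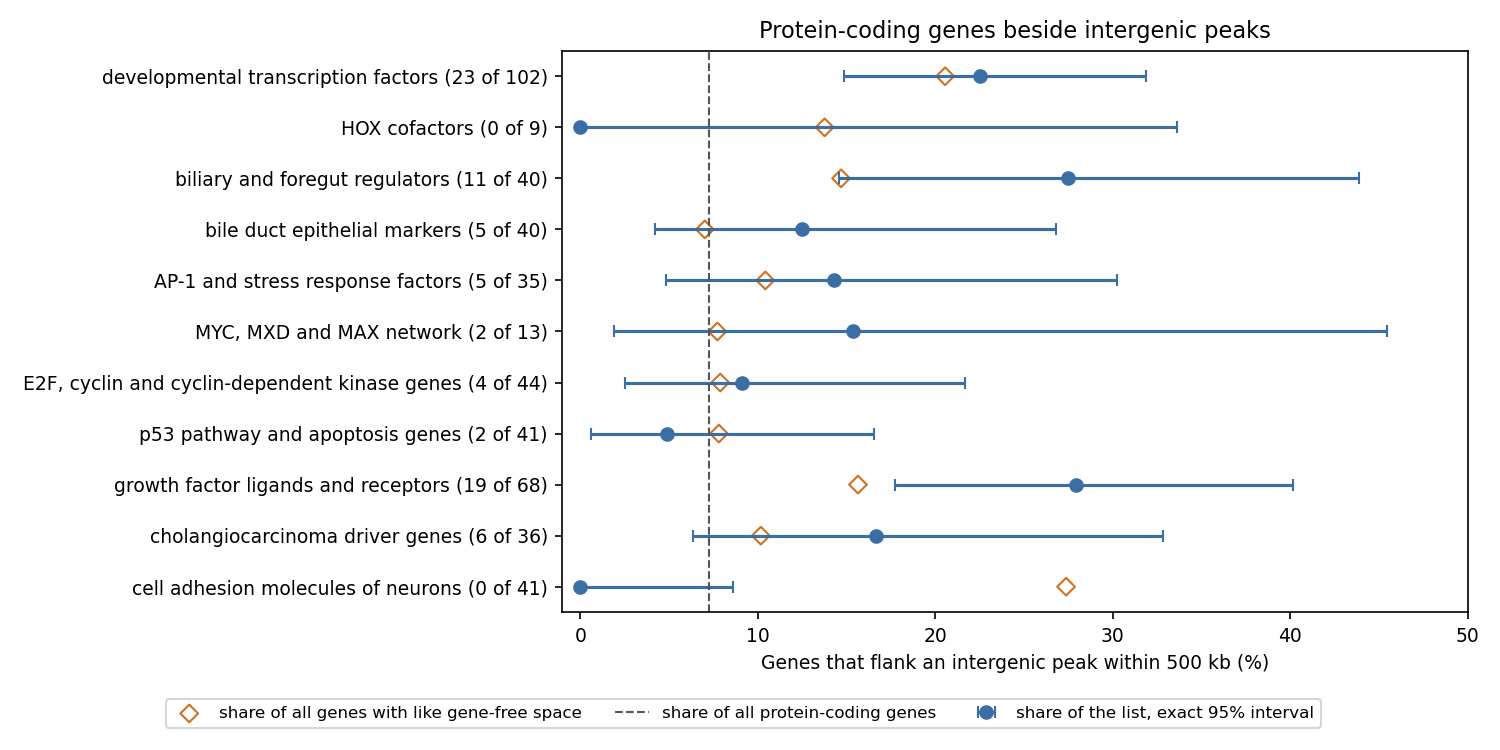
For 11 lists of genes, filled circles give the percentage of the list's genes that flank an intergenic peak within 500 kb, with exact binomial 95% intervals, and open diamonds give the percentage expected from all protein-coding genes with as much space free beside them. The dashed line marks 7.27%, the share over all protein-coding genes. The growth factor list (27.9%) stands above its diamond (15.6%) and the list of neuronal adhesion molecules (0 of 41 genes) stands below its diamond (27.4%).

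The control library held peaks in the same class of positions too. Of its 635 peaks, 227, or 35.7% (32.02 to 39.6%), were intergenic and 3 to 500 kb from a gene end, against 20.9% (20.1 to 21.9%) of the LV-HOXA5 peaks with and without a control peak. Of these control peaks, 167 shared a base with an LV-HOXA5 peak and 60 did not. Although no intergenic peak described here shared a base with a control peak, 110 of them, or 7.23% (5.98 to 8.65%), had one within 10 kb and 226, or 14.8% (13.1 to 16.7%), within 100 kb. The median distance to the nearest control peak was 2.95 Mb.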

How the data were processed

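Anti-Flag CUT & Tag was done in 1 LV-HOXA5 and 1 LV-HOXA5-NC library of TFK-1 cells, grouped from the sample labels. Per the file headers, the authors ran MACS 2.2.7.1 on paired-end fragments, duplicates removed, for either library without the other as control, at a q-value of 0.05 and a genome size of 2700000000 bp. The submitters' processing notes name fastp, Bowtie2, deepTools, MACS2, ChIPseeker and GRCh38. For every peak the deposited tables hold its coordinates, its pileup signal (fragments at the summit, without correction for depth), its fold enrichment ratio, and −log10 of the p-value and of the q-value. A second deposited form of both lists was not used.

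The local background was recovered as (pileup + 1) / fold − 1. Positions were compared with 59716 genes of the RefSeq table for GRCh38.p14, of which 20050 are protein-coding. Strand was known for 27305 genes, and distances run from a peak's edge to the nearest gene end. Gene-free lengths count DNA between genes. Named items are the 12 peaks with the highest fold outside chromosome Y, the 6 groups with most peaks, the peaks at the limits of distance, the 10 protein-coding genes nearest to most peaks, and up to 4 genes per list, ranked by the highest fold of any flanking peak rather than that of the nearest peak. The stretches with 5 or 6 peaks, the promoter windows, the microRNA genes and further list genes were chosen after their values were seen. The peaks described and the gene lists were chosen with earlier results of these data known.

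Shares have exact Clopper-Pearson and pileups exact Poisson 95% intervals, which cover counting error only. With 1 library per condition no test between conditions was possible. Position arithmetic was tested on simulated data. The alternatives concern the q-value, chromosomes, gene types, summit or edge, upper limit, nearby control peaks, local background, peak length, and gaps or ranges. A list gene and a stretch between genes are not reported here. The planned search for motifs in the peaks was not run, and the other experiments of the study were not analysed here. Python 3.11.15, NumPy 2.4.6, SciPy 1.17.1, pandas 2.3.3 and Matplotlib 3.10.9 were used.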

Additional observations from a re-analysis of the deposited data

How the results depend on the processing

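The number of intergenic peaks stayed between 1221 and 2215 under every alternative tried, against 1522. Of 88 values recomputed under 13 alternatives, 61 stayed close: 33 of 56 shares, medians and ratios lay within the 95% interval of the value given, and 28 of 32 counts within 1.5 times it. With protein-coding genes only, the median distance became 47366 bp, the share nearest to a protein-coding gene 100% by construction, the grouped share 21.2%, the near-to-far density ratio 2.29 and the flanking genes 2262. With gene-free intervals of at most 1 Mb, an alternative chosen after seeing the data, these became 14712 bp, 24.5%, 19.6% and 1.16, with flanking genes within 1.5 times. The ratio of 1.16 has an interval of 0.644 to 2.34, so its side of 1 is not settled. With an upper limit of 100 kb, the median distance was 14421 by construction, the share nearest to a protein-coding gene 24.6% and the grouped share 20.7%. With local background at most 3 times the genome-wide level, the median fold enrichment was 4.71, the share at 10 or more on the −log10 q scale 12.4%, the grouped share 14.7% and the peaks that scale to the lowest control pileup 29. Without peaks within 10 kb of a control peak, the last 3 were 16.01%, 20.2% and 114. A −log10 q-value of at least 3 gave a median fold of 4.91 and a share of 23.5%, and peaks at least as long as the shortest control peak gave 4.76 and 21.9%. Largest gaps of 5000, 25000 and 50000 bp put 15.0%, 34.4% and 39.4% of peaks in groups. List genes that flanked a peak numbered 71, and 46 within 100 kb. The causes were not tested unless stated. No paired analysis was possible because each condition had 1 library.

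The control's depth of 12.4% limits every statement that a region lacks a control peak. On the short-arm pseudoautosomal end of Y, which held 4 of the peaks, the gene table places shared genes on X. Distances and the check for overlap with a gene body leave those genes out there. Mapping quality was not examined here.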
